A study of Mus musculus with 24 samples.

Results

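Mitochondrial complex I is the NADH dehydrogenase of the respiratory chain, and its nuclear genes carry the symbol prefix Nduf. The genes described here are those whose symbol in the platform annotation starts with Ndufa, Ndufb, Ndufc, Ndufs, Ndufv, Ndufab or Ndufaf, taken from probes with 1 gene symbol, with the probe of the highest mean kept for each gene. Ndufs5 was left out because it lies close to Foxo6, the gene that is mutated in this series. This gave 42 genes of 19938 measured: 6 core subunits, 27 accessory subunits (9 of the matrix arm and 18 of the membrane arm), 7 assembly factors, and Ndufa4 and Ndufa4l2, which share the name but are not counted as complex I subunits. The accessory subunits Ndufb1 and Ndufb4 are not among the 42 and do not enter the counts.

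Their levels were read from 24 Affymetrix Mouse Gene 1.0 ST arrays of hippocampal RNA, as log2 values. All mice were male, 8 to 9 weeks old and on a C57BL/6J-129sv mixed background. WT mice (FoxO6 +/+) and mutant mice (FoxO6 -/-, labelled null) were each studied in a basal state or after an object learning task, with 6 arrays in each of the 4 groups. Basal mice had been housed singly for at least 3 days. Learning mice were handled every day, met the empty arena for 10 min on the day before (24 h), explored the arena with its objects for 10 min and were killed 60 min later. Handling, transport, habituation and the task therefore differ together between the states and cannot be told apart. Samples of the states are also listed in separate blocks, learning first. No batch of RNA or arrays was available here, so a processing difference between the states cannot be told apart either. Single housing is given for basal mice only, so housing may differ between the states as well. Arrays of 1 group are labelled as biological replicates, but not as separate animals, and p-values cover only the spread among them. The sources used here do not give how the null allele was made or in which cells it acts.

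Complex I takes electrons from NADH, passes them through a flavin and a chain of iron-sulphur clusters to ubiquinone, and pumps protons across the inner mitochondrial membrane. It is L-shaped: the matrix arm holds the NADH site and the iron-sulphur clusters, and the membrane arm holds the proton channels, whose core subunits are encoded by mitochondrial DNA. Accessory subunits surround this core, and assembly factors help to build the complex without staying in it. Neurons depend on this chain for the ATP that ion pumping and synaptic transmission use.

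Genes of the respiratory chain are background targets of factors such as NRF1, YY1, GABPA, CREB and the oestrogen-related receptors, so the promoters were searched for the short motifs of these factors and of FoxO factors. RefSeq promoter windows of build GRCm38.p6, each 250 bases before and 50 bases from the start site on, were found for 37 of the 42 genes, in 39 windows; Ndufa2, Ndufa4l2, Ndufaf6, Ndufb9 and Ndufs1 are not in that table. Both strands were searched. The 100 bases around the start site are printed for 9 genes, of which 8 hold the motifs found most often, in risen and not risen genes, and Ndufs3 holds the only GABPA motif; all are written 5′ to 3′ on the gene's strand, with the motif in capitals.
Ndufa8 (chr2:36049289-36049388, minus strand; 2 NRF1 motifs): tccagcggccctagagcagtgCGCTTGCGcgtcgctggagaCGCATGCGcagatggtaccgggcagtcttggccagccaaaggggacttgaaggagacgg
Ndufa6 (chr15:82354242-82354341, minus strand; NRF1): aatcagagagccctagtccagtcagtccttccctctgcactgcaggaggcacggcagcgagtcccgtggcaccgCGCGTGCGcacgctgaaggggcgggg
Ndufb10 (chr17:24724374-24724473, minus strand; 2 NRF1 motifs): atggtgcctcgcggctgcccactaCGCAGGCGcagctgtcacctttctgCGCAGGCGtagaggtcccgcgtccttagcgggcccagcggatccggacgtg
Ndufs6 (chr13:73328433-73328532, minus strand; NRF1, then YY1): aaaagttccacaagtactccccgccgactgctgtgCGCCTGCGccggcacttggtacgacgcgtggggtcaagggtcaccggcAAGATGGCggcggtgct
Ndufs4 (chr13:114388045-114388144, minus strand; YY1): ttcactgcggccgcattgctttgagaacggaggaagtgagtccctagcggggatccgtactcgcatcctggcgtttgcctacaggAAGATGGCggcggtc
Ndufb8 (chr19:44555393-44555492, minus strand; YY1): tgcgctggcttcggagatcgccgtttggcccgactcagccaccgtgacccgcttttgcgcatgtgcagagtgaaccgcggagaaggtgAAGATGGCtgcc
Ndufc1 (chr3:51408906-51409005, minus strand; YY1): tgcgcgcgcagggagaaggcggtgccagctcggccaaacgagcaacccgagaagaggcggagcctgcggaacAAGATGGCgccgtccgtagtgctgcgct
Ndufs7 (chr10:80249399-80249498, plus strand; YY1): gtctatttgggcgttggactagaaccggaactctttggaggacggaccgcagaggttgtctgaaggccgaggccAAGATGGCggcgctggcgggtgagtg
Ndufs3 (chr2:90904672-90904771, minus strand; GABPA motif on the other strand): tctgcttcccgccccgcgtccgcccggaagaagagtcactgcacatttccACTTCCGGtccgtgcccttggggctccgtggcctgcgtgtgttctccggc

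The NRF1 motif, searched as CGCANGCG, was in 13 of the 39 windows (33.3%), those of 11 genes, against 8.21% of all 32851 promoter windows in the table. Ndufa5 and Ndufa7 have overlapping windows that hold the same NRF1 site, which was counted in each window. By gene, the motif was in 11 of the 37 genes with a window. AAGATGGC, the YY1 motif, was in 7 windows (17.9%), against 2.75% of all, and lay 22 to 38 bases after the start site in Ndufa3, Ndufa9, Ndufb8, Ndufc1, Ndufs4, Ndufs6 and Ndufs7. The cyclic AMP element TGACGTCA was in 3 windows (7.69% against 1.79%), those of Ndufa10, Ndufa11 and Ndufb2. The GABPA motif CCGGAAGT was in 1 window, that of Ndufs3 (2.56% against 3.89%), and the FoxO motif GTAAACA in 1, that of Ndufaf1 (2.56% against 3.65%). The oestrogen-related receptor motif TCAAGGTCA was in 0 windows, against 0.423% of all. NRF1's motif can match the same bases on both strands, which was counted once per window. No matches of different motifs overlapped in the windows of these genes. A match describes letters only and shows no binding.

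Before the learning comparisons, the arrays themselves need a description. Foxo6 was at 7.03 ± 0.20 in WT basal and 6.30 ± 0.16 in mutant basal arrays, and at 6.87 ± 0.15 and 6.24 ± 0.15 after learning (log2 level, mean ± SD, n = 6), so it was lower in the mutants (adjusted p = 0.000128 basal and 0.000833 after learning). Pairs of arrays of a group correlated at 0.991 to 0.997 across genes. WT basal arrays 4, 5 and 6 stood apart from WT basal arrays 1 to 3 in choroid plexus RNA: Ttr, the transthyretin gene of choroid plexus, was at 8.80, 9.64 and 9.17 against 11.65, 12.11 and 11.81. WT basal array 6 also had the lowest mean of the 42 genes, 8.84, where the other WT basal arrays had 8.98 to 9.04. Learning results in WT are therefore given with and without these arrays.

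The first question is what happened to complex I genes after the learning task in WT mice. The genes rose together: 33 of the 42 were higher after learning and 1, Ndufa1, was lower, with 8 not called (limma, adjusted p under 0.05 over all genes). Over all genes 43.3% were called, 25.1% as higher and 18.2% as lower, and over the genes at or above the median level 35.7% were called higher. The median difference of the 42 genes was 0.33 on the log2 scale, or 1.25-fold, against 0.03 over all genes. In 24 of the 42 every learning array lay above every basal array, which was the case for 13.8% of all genes. Of the 9969 genes at or above the median level, it was the case for 2320. In tissue RNA, a change in the number of cells of a type and a change in RNA per cell cannot be told apart. Without WT basal arrays 4 to 6, 33 genes were called, 31 higher and 2 lower, with a median of 0.29, and without array 6 alone 36 were called, 32 higher and 4 lower, with a median of 0.29.

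In FoxO6 mutant mice the same comparison gave 34 called genes, 32 higher and 2 lower (Ndufa1 and Ndufa4l2), with a median of 0.30 (1.23-fold) against 0.03 over all genes. Over all genes 41.3% were called in the mutant, 22.6% as higher and 18.7% as lower, and 32.7% of those at or above the median level were called higher. The groups did not overlap, with learning higher, in 22 of the 42, against 10.9% of all genes. Of the 9969 genes at or above the median level, this held for 1896. There were 31 genes called higher in both genotypes, which is 93.9% of those higher in WT and 96.9% of those higher in the mutant, and Ndufa1 was lower in both. All 42 differences had the same sign in WT and mutant mice.

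**Figure D1:**
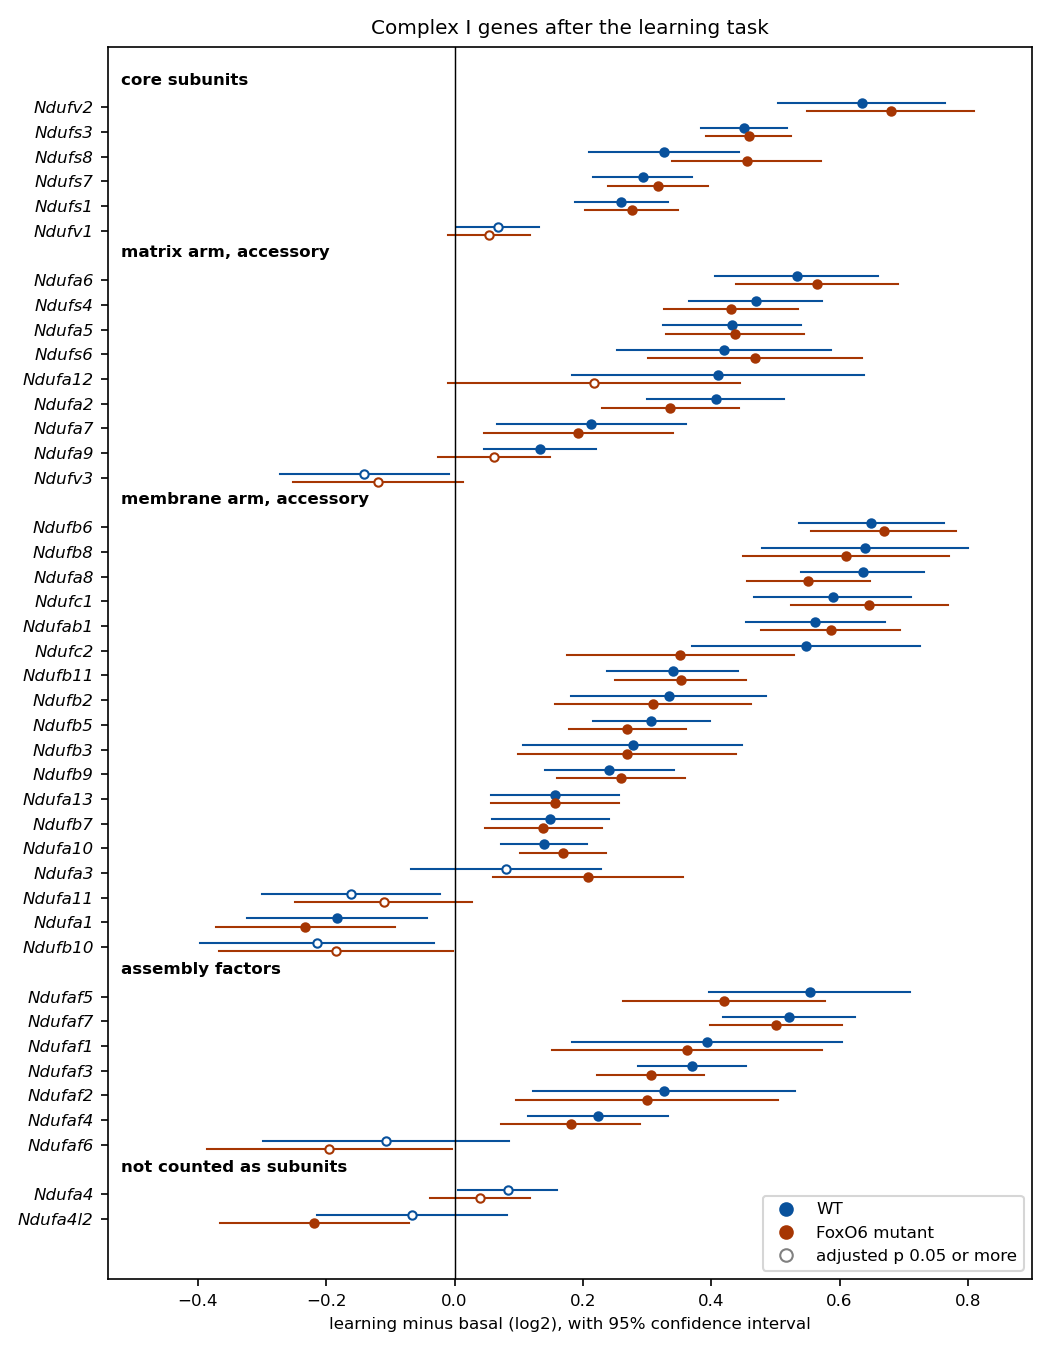
Difference between learning and basal arrays for each of the 42 genes (log2, x axis) in WT (blue) and FoxO6 mutant mice (red), by role; bars are 95% confidence intervals and filled points have an adjusted p under 0.05. Most points lie between 0.1 and 0.7 in both genotypes, and Ndufa1, Ndufa11, Ndufb10, Ndufv3, Ndufaf6 and Ndufa4l2 lie below 0 in both.

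The core subunits of the matrix arm carry the electron path. In WT mice 5 of the 6 rose, and the same 5 rose in the mutants, with medians of 0.31 and 0.39. Ndufs3, a core subunit near the ubiquinone site, had a lowest, median and highest level of 10.23, 10.34 and 10.41 in WT basal arrays and of 10.75, 10.79 and 10.81 in WT learning arrays. In the mutant these were 10.29, 10.35 and 10.41 at basal and 10.69, 10.82 and 10.84 after learning. All 12 learning arrays thus lay above all 12 basal arrays. The difference was 0.45 in WT (SE 0.0327, 1.37-fold, adjusted p = 2.83e-12) and 0.46 in the mutant (1.37-fold, adjusted p = 2e-12). A dimmer second probe of Ndufs3 gave 0.49 in both genotypes.

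Ndufv2, which holds an iron-sulphur cluster of the NADH module, was at 9.63, 10.08 and 10.18 (lowest, median, highest) in WT basal arrays and at 10.50, 10.67 and 10.78 in WT learning arrays. Mutant values were 9.97, 10.02 and 10.21 at basal and 10.69, 10.74 and 10.77 after learning. The states did not overlap in either genotype, and WT basal array 6 supplied the lowest value. The WT rise of Ndufv2 was 0.63 (SE 0.064, 1.55-fold, adjusted p = 2.1e-09) and the mutant rise 0.68 (1.6-fold, adjusted p = 5.26e-10), the largest among the core subunits in both genotypes.

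Ndufs7 and Ndufs8 hold the iron-sulphur clusters that lead to ubiquinone. Ndufs7 was at 10.53, 10.60 and 10.69 in WT basal and 10.86, 10.88 and 11.02 in WT learning arrays, a rise of 0.29 (SE 0.0379, 1.23-fold, adjusted p = 2.05e-07), and it rose by 0.32 in the mutant (adjusted p = 5.07e-08). Ndufs8 was at 8.57, 8.74 and 8.92 in WT basal and 8.97, 9.07 and 9.18 in WT learning arrays, and at 8.65, 8.81 and 8.86 and 9.09, 9.23 and 9.33 in the mutant. Neither gene's states overlapped within a genotype. The rise of Ndufs8 was 0.33 in WT (SE 0.057, adjusted p = 2.24e-05), and 0.46 was its rise in the mutant (adjusted p = 1.14e-07). Ndufs1, the large iron-sulphur subunit, moved from 10.46, 10.58 and 10.59 to 10.72, 10.82 and 10.87 in WT, by 0.26 (SE 0.0354, 1.2-fold, adjusted p = 5.07e-07). Its mutant difference was 0.28 (adjusted p = 1.76e-07).

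Ndufv1, the subunit that binds NADH and the flavin, was the core subunit that was not called. Its values were 10.13, 10.27 and 10.30 in WT basal and 10.29, 10.31 and 10.36 in WT learning arrays, which overlap. The difference was 0.07 in WT (SE 0.0312, adjusted p = 0.0815) and 0.05 in the mutant (adjusted p = 0.174). The lowest value, 10.13, came from WT basal array 1. Without WT basal arrays 4 to 6 the difference was 0.11 (adjusted p = 0.0194), so the call on Ndufv1 depends on which arrays are used.

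**Figure D2:**
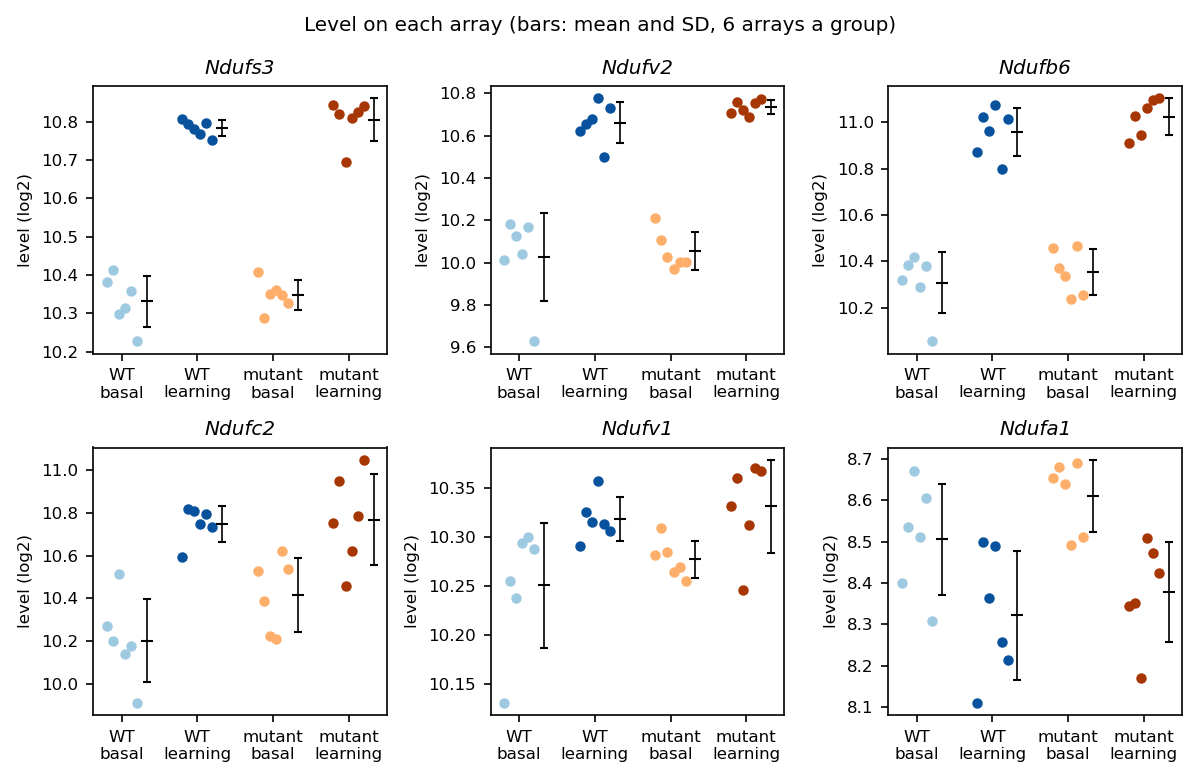
Level on each array (log2, y axis) of Ndufs3, Ndufv2, Ndufb6, Ndufc2, Ndufv1 and Ndufa1 in the 4 groups of 6 arrays, with mean and SD as bars; each panel has its own y axis, which does not start at 0. Ndufs3, Ndufv2 and Ndufb6 separate all learning from all basal arrays, Ndufc2 does so in WT, Ndufv1 overlaps, and Ndufa1 is lower after learning with overlap.

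Among the 9 accessory subunits of the matrix arm, 8 rose in WT and 6 in the mutant, with medians of 0.41 and 0.34. Ndufa6, which anchors an acyl carrier protein to the matrix arm, was at 8.70, 9.08 and 9.27 in WT basal and 9.45, 9.56 and 9.73 in WT learning arrays, and at 9.01, 9.06 and 9.09 against 9.53, 9.62 and 9.70 in the mutant. It rose by 0.53 in WT (SE 0.0619, 1.45-fold, adjusted p = 2.91e-08) and by 0.56 in the mutant, with no overlap in either. Ndufs4, whose loss causes a fatal brain disease in mice, was at 9.53, 9.77 and 9.81 in WT basal and 10.07, 10.19 and 10.33 in WT learning arrays, and rose by 0.47 (SE 0.0509, 1.38-fold, adjusted p = 8.32e-09) and by 0.43 in the mutant. The zinc-binding subunit Ndufs6, whose promoter is shown above with both the NRF1 and YY1 motifs, rose by 0.42 in WT (SE 0.0816, adjusted p = 9.01e-05) and 0.47 in the mutant; its WT groups met at 8.48.

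Ndufa5 rose by 0.43 in WT (SE 0.0525, adjusted p = 6.5e-08) and 0.44 in the mutant, and Ndufa2, a small thioredoxin-like subunit, by 0.41 and 0.34. Ndufa7 rose by 0.21 in WT (adjusted p = 0.0168) and 0.19 in the mutant (adjusted p = 0.032), with overlapping groups. Leaving out WT basal array 6 or WT learning array 3 ended the Ndufa7 call in WT (adjusted p up to 0.0577), leaving out WT basal arrays 4 to 6 gave 0.14 (adjusted p = 0.217), and in the mutant 6 of 12 omissions of 1 array ended it (adjusted p up to 0.0933). Ndufa7 had the smallest difference of the matrix arm genes called in both genotypes.

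Ndufa12, which replaces the assembly factor Ndufaf2 late in assembly, and Ndufa9, which binds a nicotinamide nucleotide at the foot of the arm, were called in WT alone. Ndufa12 was at 9.09, 9.22 and 9.35 in WT basal and 9.37, 9.60 and 9.87 in WT learning arrays (0.41, SE 0.111, adjusted p = 0.0032), and ranged from 8.76 to 9.49 and from 8.97 to 9.73 in the mutant (0.22, adjusted p = 0.122). Without mutant learning array 3 the mutant difference of Ndufa12 was 0.31 (adjusted p = 0.0175). Ndufa9 rose by 0.13 in WT (adjusted p = 0.0126), with a mutant difference of 0.06 (adjusted p = 0.269). The difference between genotypes itself was not called for either gene, and for Ndufa12 it was −0.19 with a 95% interval from −0.52 to 0.13. Ndufv3, a small subunit of the NADH module, gave −0.14 in WT (adjusted p = 0.0805) and −0.12 in the mutant (adjusted p = 0.144), and was called lower in WT without WT basal array 6 (adjusted p = 0.044) or WT learning array 4 (adjusted p = 0.0151).

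The membrane arm holds the largest group, 18 accessory subunits, of which 14 rose and 1 fell in WT and 15 rose and 1 fell in the mutant, with medians of 0.29 and 0.27. Ndufb6 was at 10.06, 10.35 and 10.42 in WT basal and 10.80, 10.99 and 11.07 in WT learning arrays, and at 10.24, 10.35 and 10.47 against 10.91, 11.04 and 11.10 in the mutant. This was the largest WT difference among the 42 genes, 0.65 (SE 0.0552, 1.57-fold, adjusted p = 7.23e-11), with 0.67 in the mutant (adjusted p = 3.89e-11). Ndufb8 was at 8.28, 8.73 and 8.80 in WT basal and 9.10, 9.31 and 9.53 in WT learning arrays, a rise of 0.64 (SE 0.0784, 1.56-fold, adjusted p = 7.8e-08), with 0.61 in the mutant. Both genes separated the states completely in both genotypes, and in both WT basal array 6 was the lowest.

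Ndufa8, a disulphide-bonded subunit on the intermembrane side, was at 9.23, 9.47 and 9.58 in WT basal and 10.00, 10.11 and 10.14 in WT learning arrays, and rose by 0.64 (SE 0.0466, 1.55-fold, adjusted p = 3.62e-12) and by 0.55 in the mutant. Ndufc1 was at 8.97, 9.14 and 9.28 and 9.66, 9.72 and 9.80, and rose by 0.59 (SE 0.0598, 1.5-fold, adjusted p = 2.41e-09) and by 0.65 in the mutant; its second probe gave 0.79 and 0.72. Ndufab1, the mitochondrial acyl carrier protein, which also serves fatty acid and lipoic acid synthesis, was at 8.84, 9.14 and 9.20 and 9.52, 9.67 and 9.74, and rose by 0.56 (SE 0.053, 1.48-fold, adjusted p = 5.95e-10) and by 0.59 in the mutant. None of these genes had overlapping states in either genotype.

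Ndufc2 was at 9.91, 10.19 and 10.51 in WT basal and 10.59, 10.77 and 10.82 in WT learning arrays, without overlap. Mutant arrays ranged from 10.21 to 10.62 at basal and from 10.46 to 11.05 after learning, with overlap. The rise was 0.55 in WT (SE 0.0867, 1.46-fold, adjusted p = 5.3e-06) and 0.35 in the mutant (1.28-fold, adjusted p = 0.00139). Its genotype difference in the rise, −0.20 with a 95% interval from −0.45 to 0.05, was the largest in size among the 42 genes and was not called.

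The other membrane arm genes rose by less. Ndufb11, which is X-linked, rose by 0.34 in WT and 0.35 in the mutant, Ndufb2 by 0.33 and 0.31, Ndufb5 by 0.31 and 0.27, Ndufb3 by 0.28 and 0.27, and Ndufb9 by 0.24 and 0.26. Ndufa13, which is also known as a cell death regulator, rose by 0.16 in both genotypes, Ndufb7 by 0.15 and 0.14, and Ndufa10, a relative of nucleoside kinases, by 0.14 and 0.17. Small as it was, the Ndufa10 rise separated the states in WT, with arrays at 10.68 to 10.77 at basal and at 10.83 to 10.93 after learning (adjusted p = 0.000837). Mutant arrays of Ndufa10 overlapped, at 10.70 to 10.77 and 10.75 to 10.98. Without WT basal arrays 4 to 6, Ndufb2 (0.20, adjusted p = 0.0573) and Ndufb7 (0.10, adjusted p = 0.0931) were no longer called in WT. Ndufa3 was called in the mutant (0.21, adjusted p = 0.0214) and not in WT (0.08, adjusted p = 0.401). The difference between genotypes was 0.13 for Ndufa3, with a 95% interval from −0.08 to 0.34, and its mutant call ended when mutant basal array 2 or 3 or mutant learning array 6 was left out (largest adjusted p 0.0815).

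Ndufa1, an X-linked subunit needed early for the membrane arm, was the member that fell in both genotypes. It was at 8.31, 8.52 and 8.67 in WT basal and 8.11, 8.31 and 8.50 in WT learning arrays, and at 8.49, 8.65 and 8.69 against 8.17, 8.39 and 8.51 in the mutant, so the states overlapped. In WT it fell by 0.18 (SE 0.0685, 0.881-fold, adjusted p = 0.0306), and mutant levels fell by 0.23 (0.851-fold, adjusted p = 0.00671). The WT call ended in 6 of 12 omissions of 1 array, those of WT basal 2, 3 or 5 and WT learning 1, 5 or 6 (adjusted p up to 0.0989).

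Ndufb10, another disulphide-bonded subunit on the intermembrane side, and Ndufa11, which sits where complex I touches complex III, had negative differences that were not called. Ndufb10 ranged from 6.77 to 7.42 in WT basal and from 6.65 to 7.16 in WT learning arrays (−0.21, adjusted p = 0.0518), and gave −0.19 in the mutant (adjusted p = 0.0988). Without WT basal array 6 it was −0.29 (adjusted p = 0.0043), and it was also called lower without WT learning array 3 or 4 (adjusted p = 0.0254 and 0.035). Its promoter, shown above, holds 2 NRF1 motifs, as does that of Ndufa8, which rose. Ndufa11 gave −0.16 in WT (adjusted p = 0.0545) and −0.11 in the mutant (adjusted p = 0.201), while its second, dimmer probe gave 0.26 (adjusted p = 0.0325 over all probes) and 0.41 (adjusted p = 0.00134). Leaving out any of 5 WT arrays (basal 3, 4, 6, learning 3, 4) made the brighter probe called lower in WT (−0.18 to −0.21). The probes of Ndufa11 disagree in sign, so no direction is given for this gene.

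Of the 7 assembly factors 6 rose in both genotypes, with medians of 0.37 in WT and 0.31 in the mutant. Ndufaf5, which hydroxylates an arginine of Ndufs7, was at 7.19, 7.29 and 7.42 in WT basal and 7.66, 7.84 and 8.07 in WT learning arrays, and rose by 0.55 (SE 0.0766, 1.47-fold, adjusted p = 6.31e-07) and by 0.42 in the mutant. Ndufaf7, an arginine methyltransferase, was at 8.25, 8.39 and 8.50 and 8.78, 8.91 and 8.97, and rose by 0.52 (SE 0.0503, 1.44-fold, adjusted p = 8.85e-10) and by 0.50 in the mutant. Ndufaf3, a partner of Ndufaf4 in building the ubiquinone module, moved from 8.24, 8.38 and 8.42 to 8.66, 8.73 and 8.85, by 0.37 (SE 0.0409, adjusted p = 1.21e-08), and by 0.31 in the mutant. These genes had no overlap between states in either genotype.

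Ndufaf1, which acts in the assembly of the membrane arm, rose by 0.39 and 0.36, Ndufaf2 by 0.33 and 0.30, and Ndufaf4 by 0.22 and 0.18 (WT and mutant), all with overlapping groups. The Ndufaf2 call in the mutant ended without mutant learning array 5 (adjusted p = 0.0586). Ndufaf6 gave −0.11 in WT (adjusted p = 0.383) and −0.20 in the mutant (adjusted p = 0.0973), from levels of 5.88 to 6.50 over all groups, and was called lower in the mutant without mutant basal array 4 (−0.24, adjusted p = 0.0448). Of 11 complex I assembly factors with other names, 8 rose and 2 fell in WT and 6 rose and 2 fell in the mutant. Tmem70 (0.56 in WT, adjusted p = 2.65e-11), Aifm1 (0.52), Tmem126b (0.50) and Tmem186 (0.40) rose most, and Dmac2 (−0.23) and Foxred1 (−0.22) were lower; the mutant values were 0.55, 0.42, 0.47, 0.25, −0.27 and −0.36 in that order.

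Neither of the Nduf genes that are not counted as complex I subunits was called higher. Ndufa4, now assigned to complex IV, was at 11.25, 11.44 and 11.53 in WT basal and 11.46, 11.49 and 11.62 in WT learning arrays (0.08, adjusted p = 0.0797), and gave 0.04 in the mutant (adjusted p = 0.438). Without WT basal array 5 the WT difference of Ndufa4 was 0.10 and was called (adjusted p = 0.0326). Ndufa4l2, which low oxygen is known to induce, gave −0.07 in WT (adjusted p = 0.491) and fell by 0.22 in the mutant (adjusted p = 0.0153), where its levels were 6.22 to 6.44 at basal and 6.02 to 6.28 after learning. Without this pair, 27 of the 33 subunits rose and 1 fell in WT, and 26 rose and 1 fell in the mutant.

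**Figure D3:**
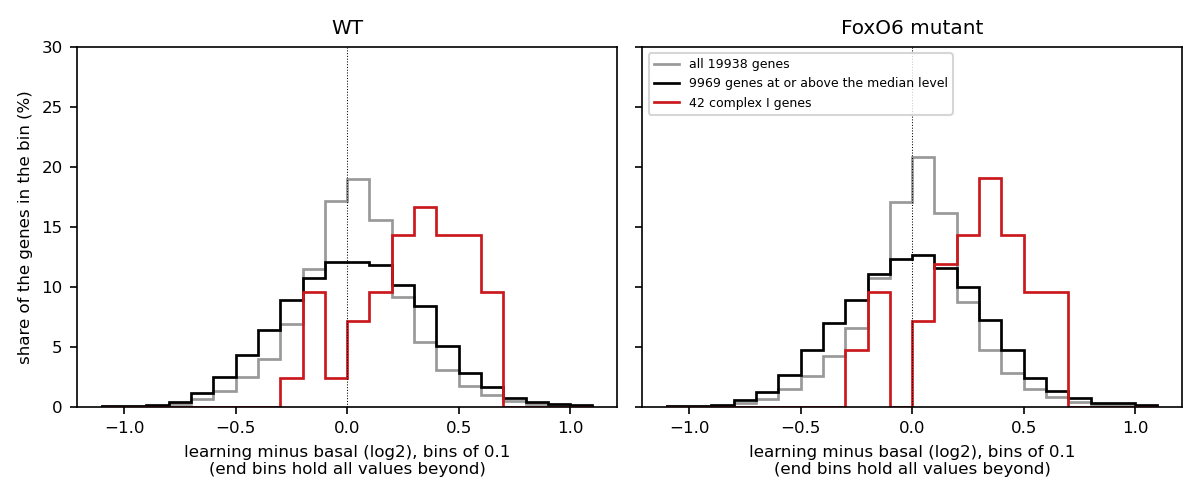
Share of genes (%, y axis) by learning minus basal difference (log2, x axis, bins of 0.1) for the 42 complex I genes (red), all 19938 genes (grey) and the 9969 genes at or above the median level (black), in WT (left) and FoxO6 mutant mice (right). The red outline peaks between 0.3 and 0.4 in both panels, with medians of 0.33 and 0.30, while the other outlines centre near 0.

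The mean of the 42 genes on each array gives the same picture per sample. It was 8.84 to 9.04 in WT basal, 8.96 to 9.04 in mutant basal, 9.21 to 9.33 in WT learning and 9.20 to 9.35 in mutant learning arrays, so all 12 learning arrays lay above all 12 basal arrays. The mean of all genes was 7.003 to 7.026 in WT basal and 7.031 to 7.055 in WT learning arrays, so it too separated the states in WT. In the mutant it was 7.011 to 7.054 at basal and 7.035 to 7.059 after learning. The overlap in the mutant came from mutant basal array 6, at 7.054. Choroid plexus markers were read on the same arrays, and the mean of 10 markers was 6.01 to 7.20 in WT basal, 6.62 to 7.21 in mutant basal, 6.09 to 6.47 in WT learning and 6.06 to 7.12 in mutant learning arrays. With that mean as a covariate, 32 of the 42 genes were called in WT and 34 in the mutant. WT basal arrays 4 to 6 had choroid marker means of 6.01 to 6.28 and complex I means of 8.98, 9.04 and 8.84. Averaged by group, the choroid markers were at 6.61 in WT basal and 6.30 in WT learning arrays, and at 6.93 and 6.49 in the mutant. The part of choroid plexus RNA in the complex I result was not tested.

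**Figure D4:**
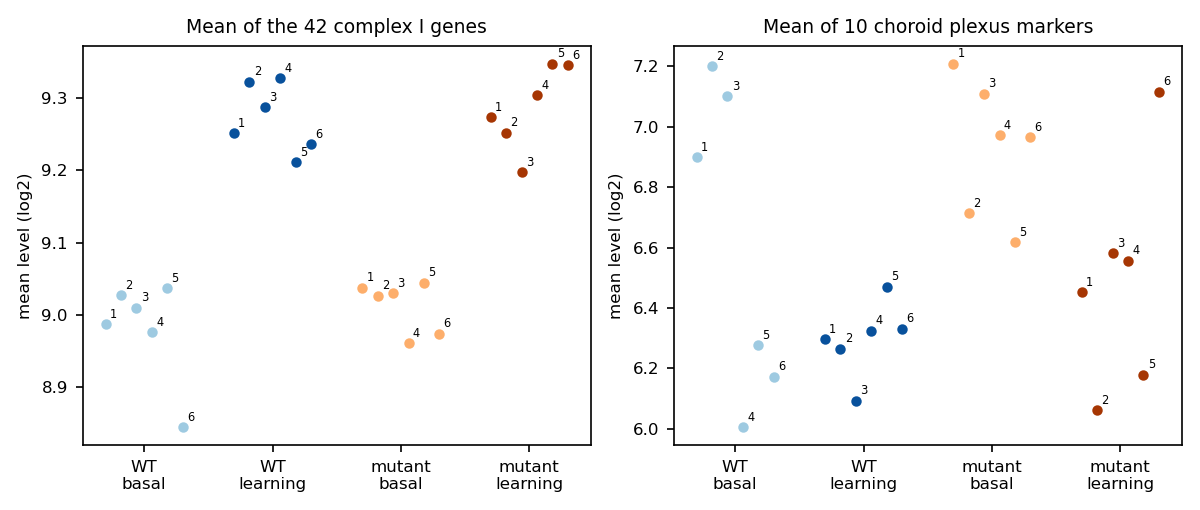
Mean level (log2, y axes) of the 42 complex I genes (left) and of 10 choroid plexus markers (right) on each array, with the replicate number beside each point and 6 arrays a group. Complex I means are at most 9.04 in basal and at least 9.20 in learning arrays, while the marker means of the states overlap and WT basal arrays 4 to 6 lie apart from 1 to 3.

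Markers of other cells were followed as well, and their part in the result was not tested. Of 10 markers of hippocampal neurons 2 rose and 5 fell in WT, and 1 rose and 5 fell in the mutant. Over the 19938 genes, 25.1% rose and 18.2% fell in WT, and 22.6% rose and 18.7% fell in the mutant. Of the 9969 genes at or above the median level, 3560 rose and 2961 fell in WT. In the mutant 3260 of them rose and 3101 fell. The mean of the neuron markers was 9.26 to 9.61 over all arrays. By group it averaged 9.48 in WT basal and 9.42 in WT learning arrays. In the mutant it averaged 9.45 at basal and 9.37 after learning, and the states overlapped in both genotypes. Astrocyte markers gave 1 higher and 3 lower of 6 in WT and 0 and 4 in the mutant, with means of 10.26 to 10.56. Oligodendrocyte markers gave 1 higher and 2 lower of 5 in WT and 2 and 2 in the mutant, with means of 10.22 to 10.50. Microglial markers gave 2 higher and 1 lower of 5 in WT and 1 and 1 in the mutant, with means of 7.50 to 7.70. Of 4 endothelial markers 2 were lower in WT and 3 in the mutant, with 0 higher and medians of −0.09 and −0.26. Their mean was 8.38 to 8.55 in WT basal and 8.25 to 8.40 in WT learning arrays, and 8.44 to 8.65 and 8.08 to 8.38 in the mutant, so it was lower after learning without overlap in the mutant alone. Of the 10 choroid plexus markers 1 was lower in WT and 4 in the mutant, with 0 higher and medians of −0.25 and −0.30. Neither of the 2 blood markers was called, and their mean was 5.66 to 6.35.

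The rise was set beside that of the other respiratory complexes, from a list of 36 nuclear subunits of complexes II to V. In each genotype 23 of these rose and 4 fell, not all of them the same genes, with medians of 0.23 in WT and 0.20 in the mutant. In complex III, 6 of 9 rose and 1 fell, led by Uqcrc2 (0.55 in WT, adjusted p = 2.76e-15), a core protein, with Uqcrh (−0.18) lower. In complex IV, 6 of 9 rose and 2 fell, with Cox8a (0.78), Cox6c (0.76) and Cox7b (0.66) highest and Cox5b (−0.20) and Cox4i1 (−0.13) lower. ATP synthase, complex V, had 9 of 14 risen in WT and 10 in the mutant with 0 lower, with Atp5g3 at 0.75 and Atp5g1 at 0.50 in WT, both subunits of its rotor ring. Complex II had 2 of 4 risen and 1 lower in WT (Sdhd 0.40, Sdhc −0.23). These counts describe the lists side by side, and the difference between complexes was not tested.

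The mitochondrial genome encodes the core of the membrane arm, of which 1 gene, ND3, has a probe with a single symbol. After learning ND3 differed by −0.06 in WT mice (adjusted p = 0.41) and −0.01 in mutants (adjusted p = 0.867), from a mean level of 12.24. Of 17 factors known to act on respiratory genes or on mitochondrial transcription, 6 rose and 6 fell in WT and 5 rose and 6 fell in the mutant. The shares called higher, 35.3% in WT and 29.4% in the mutant, were near those of all genes at or above the median level, 35.7% and 32.7%. Over all genes 25.1% and 22.6% were called higher. Gabpa (0.46, adjusted p = 5.23e-05), Tfb1m (0.39), Creb1 (0.35) and Tfb2m (0.34) rose most in WT, with 0.42, 0.44, 0.32 and 0.28 in the mutant. Ppargc1a, the coactivator PGC-1alpha, rose by 0.34 in WT (adjusted p = 0.0097), with a mutant difference of 0.16 (adjusted p = 0.242). The difference between genotypes in the Ppargc1a rise was not called, with 0 of the 19938 genes called in that comparison. Foxo1 (−0.24), Ppargc1b (−0.21), Polrmt (−0.20), Esrra (−0.17) and Yy1 (−0.17) were lower in WT, and Nrf1, whose motif was the most frequent above, gave −0.08 (adjusted p = 0.309).

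The second question is whether loss of FoxO6 changes complex I genes. None of the 42 was called between mutant and WT mice at basal, after learning or over both states together, where limma called 0.1%, 0.0752% and 0.391% of all genes. At an unadjusted p under 0.05 the counts were 2, 2 and 3 of 42, where 4.5%, 7.33% and 8.86% of all genes passed. The medians of mutant minus WT were 0.03 at basal and 0.02 after learning, against 0.01 and 0.00 over all genes. Without WT basal array 6 the basal median was −0.0023, so its sign depends on that array. For Ndufs3 the difference was 0.02 in both states, with 95% intervals from −0.05 to 0.08 at basal and from −0.04 to 0.09 after learning.

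The genes with the smallest p show how large a genotype difference remains possible. At basal, Ndufa8 differed by 0.12 (95% interval 0.03 to 0.22, adjusted p = 0.946), from WT levels of 9.23 to 9.58 and mutant levels of 9.51 to 9.69, and Ndufc2 by 0.22 (0.04 to 0.39, adjusted p = 0.998). Ndufa2, Ndufa1 and Ndufa4l2 followed with 0.09, 0.11 and 0.10. After learning, Ndufs8 differed by 0.16 (0.04 to 0.27, adjusted p = 0.545) and Ndufa3 by 0.18 (0.03 to 0.32, adjusted p = 0.596). Ndufa12 (−0.20), Ndufaf1 (−0.14) and Ndufaf5 (−0.10) pointed the other way. Over both states together, Ndufa8 (0.08), Ndufs8 (0.09), Ndufa3 (0.11), Ndufc2 (0.12) and Ndufaf1 (−0.13) came first. The groups of Ndufa8, Ndufc2, Ndufs8 and Ndufa3 overlapped in these states. The interval of Ndufc2 at basal reached 0.39, and that of Ndufa12 after learning ran from −0.43 to 0.03, the wider of these.

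The third question is whether the learning response of complex I genes depends on FoxO6. The mutant rise minus the WT rise ranged from −0.20 (Ndufc2) to 0.13 (Ndufs8) with a median of −0.01, and 0 of the 42 were called, as were 0% of all genes (limma). At an unadjusted p under 0.05 there were also 0 of 42, against 2.56% of all genes. Ndufs8 had 0.13 with a 95% interval from −0.04 to 0.29 (unadjusted p = 0.121), Ndufa4l2 −0.15 and Ndufa8 −0.08. For Ndufs3 the difference of the rises was 0.01, with a 95% interval from −0.09 to 0.10, beside rises of 0.45 and 0.46. Across the 42 genes the WT and mutant rises, which share no arrays, correlated at r = 0.961, a description in which genes of the same arrays are not independent.

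**Figure D5:**
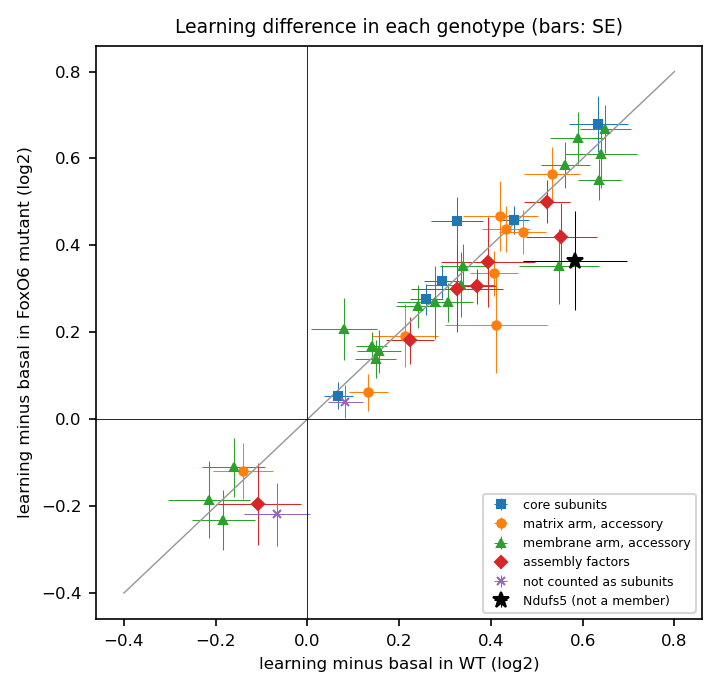
Learning minus basal difference (log2) in FoxO6 mutant (y axis) against WT mice (x axis) for the 42 genes by role, with SE bars and the line of equal difference; Ndufs5, which is not among the 42, is the star. Points follow the line from −0.21 to 0.65 on the WT axis, with Ndufs8 above it and Ndufc2 and Ndufa12 below it by up to 0.20.

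Ndufs5, an accessory subunit that was left out because of its place near Foxo6, also rose after learning. Its WT difference was 0.58 (adjusted p = 9.85e-05) and its mutant difference 0.37 (adjusted p = 0.0103). Unlike the 42 genes it differed between genotypes (adjusted p = 0.000134 basal and 3.68e-06 after learning), with a highest mutant basal level of 8.39 below the lowest WT basal level of 8.54, and a highest mutant learning level of 8.77 below the lowest WT learning level of 9.21. A probe shared by Ndufs5 and Ndufs5-ps had learning differences of 0.32 in WT and 0.27 in mutants, and was lower in the mutant by 0.24 over both states (adjusted p = 0.0422 over all probes). Because gene and neighbouring mutation are inherited together, an effect of FoxO6 on Ndufs5 and an effect of the mutated stretch of chromosome cannot be told apart.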

How the data were processed

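Hippocampal RNA of 24 samples was hybridised to Affymetrix Mouse Gene 1.0 ST arrays. The deposited values are on the log2 scale and were made by the authors with RMA, per the submitters' processing notes, which name no version. The array medians were 6.16 to 6.30, and 0 values were missing. The values were used as deposited. Of 35511 probes, 21789 have 1 gene symbol in the platform annotation of 2016, 1621 have several and 12101 have none. For the 999 genes with several such probes the probe with the highest mean was kept, which left 19938 genes and no filter on dim ones. The number of arrays limits the precision.

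One model in limma 3.58.1 (R 4.3.3) gave each of the 4 groups its mean over all 24 arrays, with a mean-variance trend (20 residual and 29.0 total degrees of freedom). The 6 comparisons were learning against basal in each genotype, mutant against WT in each state and over both, and the interaction. Two-sided p-values were adjusted over all genes with the Benjamini-Hochberg method, and calls use 0.05. The members and gene lists were chosen with earlier results of these data known. The naming rule gave all core subunits, the 12 called members with the largest difference per direction, the 5 with the smallest p where fewer than 5 were called, and up to 4 called genes per direction of other lists. Other members were named after their values were seen, as were Ndufb4 and the shared probe of Ndufs5. Alternatives changed the scaling, probe choice, filter, variance prior, array weights, covariates and arrays used; leaving out WT basal arrays 4 to 6 was chosen after seeing the data.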

Additional observations from a re-analysis of the deposited data

Results flagged for a closer look

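In 15 of 168 sets of 6 arrays (42 genes in 4 groups, 8.93%) 1 array lay far from the other 5. Far means a gap of more than 0.625 of the range. Chance gives about 1 in 20 for independent normal values, but genes of the same arrays are not independent. WT basal array 6 accounts for 6 of the 15 sets, all low. These were Ndufv2 at 9.63, Ndufb6 at 10.06, Ndufb8 at 8.28, Ndufa8 at 9.23, Ndufab1 at 8.84 and Ndufb7 at 9.21. Without that array the median learning difference in WT was 0.29 in place of 0.33. Of the others, WT basal array 1 was low for Ndufv1 (10.13) and WT learning array 4 high for Ndufs7 (11.02). In mutant basal arrays, array 6 was high for Ndufa10 (10.77) and low for Ndufa5 (8.39), and array 4 was low for Ndufb5 (10.26). In mutant learning arrays, array 3 was low for Ndufs1 (10.66) and Ndufs3 (10.69), array 2 for Ndufa2 (8.38) and array 1 for Ndufab1 (9.58).

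Probes outside the comparisons also carried signal. A pair of probes named for both Ndufb4 and Ndufb4b, which cannot be told apart there, rose after learning by 0.58 and 0.59 in WT and by 0.53 and 0.54 in the mutant, within the range of the membrane arm genes (adjusted p over all probes 1.97e-08, 3.98e-09, 7.61e-08 and 1.45e-08, limma).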

How the results depend on the processing

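The learning counts stayed within 1.5 times the reported ones and the learning medians kept their direction under every alternative run. With 1 array left out, the WT learning count was 33 to 37 (median 0.29 to 0.35) and the mutant count 32 to 34 (median 0.27 to 0.31); genotype and interaction counts were 0. The small genotype medians did change sign: at basal without WT basal array 6 (−0.0023) or arrays 4 to 6 (−0.0038), and for the interaction with a second quantile normalization (0.0058), array weights (0.013) and without arrays 4 to 6 (0.0076), and from −0.02 to 0.02 with 1 array left out. The other alternatives gave 32 to 37 in WT and 33 to 34 in the mutant. Same-numbered arrays of different groups had deviations correlated at −0.30 to 0.26, with 4 of 24 pairs over 0.1. The labels do not state that a number marks a shared animal, litter or day, and weak correlations cannot exclude it. A fit with the replicate block called 34 and 34 genes after learning and 0 between genotypes. Calls near the threshold changed: Ndufa1 in WT ended with all probes adjusted together (adjusted p = 0.0506) and with the choroid covariate (0.059), Ndufa9 in WT with the covariate (0.0592) and a second quantile normalization (0.061), Ndufa13 in WT (0.0771) and Ndufa3 in the mutant (0.0571) with the latter. Ndufb10 and Ndufa11 were called lower in WT with array weights (0.00829 and 0.0166), median centring (0.0447 and 0.0467), a second quantile normalization (0.0414 and 0.0301) and the genes at or above the median level alone (0.0366 and 0.0394, with Ndufv1 called higher, 0.0476), and Ndufv3 with array weights (0.0143) and a second quantile normalization (0.0296). With probes averaged, Ndufa11 was 0.05 in WT and 0.15 in the mutant, not called. The cause of these changes was not tested. The table gives no detection calls, so signal over background is unknown.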
